A study of Mus musculus with 4 samples.

Results

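The genes described here make, sense, carry and remove cholesterol, or make fatty acids, in the mouse hippocampus after global cerebral ischemia. The set is a fixed list of 39 gene symbols, of 22609 in the count tables. All 39 have a row, and 38 had enough reads to be tested. Hippocampal RNA came from ovariectomized female mice whose common carotid arteries were both closed for 20 min, with RNA taken after 24 h of reperfusion. One group was FLOX-control, which carries the floxed aromatase gene Cyp19a1 without the deletion (2 libraries). The other was GFAP-ARO-KO, in which Cre recombinase under the Gfap promoter removes Cyp19a1 from astrocytes (2 libraries). Aromatase makes estrogen from androgens. Ovariectomy, carotid occlusion and reperfusion were common to both groups. The labels give no age and no number of animals per library, and no group without ischemia was analysed here. P-values therefore measure the spread between these libraries, which may be technical.

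Cholesterol hardly crosses the blood-brain barrier, and the brain makes its own. Acetyl-CoA is built up through mevalonate to squalene, and squalene is closed into a ring and trimmed to cholesterol. In the adult brain, astrocytes and oligodendrocytes carry out much of this synthesis. Astrocytes pass cholesterol to neurons on particles of apolipoprotein E, which they load through the ABC transporters. SREBP transcription factors, released from the membrane when sterols are scarce, switch the synthesis genes on. LXR receptors are activated by oxidized sterols and switch the efflux genes on.

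The promoters of 3 of these genes are shown because they hold the short elements known for this control. Each is the 250 bases before and 50 after a start site, as RefSeq gives it for GRCm38.p6, printed 5′ to 3′ on the gene's strand. Srebf2, which encodes the SREBP of cholesterol synthesis, lies at chr15:82147019-82147318 (plus strand), with the sterol regulatory word TCACCCCA and the NF-Y box CCAAT (read here on the other strand as ATTGG) in capitals. Nsdhl, an enzyme of sterol demethylation, lies at chrX:72918271-72918570 (plus strand), with its CCAAT boxes on either strand in capitals. Abca1, the cholesterol efflux pump, lies at chr4:53159846-53160145 (minus strand), with a direct repeat of the LXR type in capitals.
Srebf2: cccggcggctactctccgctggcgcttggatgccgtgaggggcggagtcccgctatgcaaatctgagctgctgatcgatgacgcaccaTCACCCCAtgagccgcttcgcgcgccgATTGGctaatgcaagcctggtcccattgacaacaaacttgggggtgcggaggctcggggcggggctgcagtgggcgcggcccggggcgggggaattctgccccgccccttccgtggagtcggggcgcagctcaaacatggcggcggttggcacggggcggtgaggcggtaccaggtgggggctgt
Nsdhl: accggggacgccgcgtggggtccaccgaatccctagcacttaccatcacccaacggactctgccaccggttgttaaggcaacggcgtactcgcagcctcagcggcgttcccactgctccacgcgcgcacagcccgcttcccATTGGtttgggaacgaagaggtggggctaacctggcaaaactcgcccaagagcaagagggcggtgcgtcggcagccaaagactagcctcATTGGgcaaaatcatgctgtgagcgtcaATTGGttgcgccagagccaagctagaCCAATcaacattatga
Abca1: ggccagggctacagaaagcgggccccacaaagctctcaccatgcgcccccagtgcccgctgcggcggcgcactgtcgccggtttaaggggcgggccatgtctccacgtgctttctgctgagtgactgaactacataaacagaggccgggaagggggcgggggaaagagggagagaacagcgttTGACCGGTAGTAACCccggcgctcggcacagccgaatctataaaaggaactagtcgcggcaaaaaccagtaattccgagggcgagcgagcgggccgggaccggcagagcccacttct

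Of the 39 genes, 31 had a promoter in the RefSeq table. The words were chosen after these promoters had been read, and each was searched on both strands. TCACCCCA was found in the promoters of Srebf2, Hmgcs1 and Apoe, 3 of 31, and in 1.77% of 27025 genes with a promoter. CCAAT was found in 23 of 31, and in 41.1% of all genes. The repeat was searched as the 5-letter words GGTNA and GGTCA, with 5 bases between these letters as written. It was found in Abca1, Srebf1 and Fasn, 3 of 31, and in 0.226% of all genes. The Abca1 word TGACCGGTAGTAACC occurs in Fasn too, while Srebf1 has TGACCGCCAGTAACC. The searched words share no bases where they occur in the 3 promoters printed. A match describes the letters of the window only, and factor binding was not measured.

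The libraries held between 27930696 and 34878375 reads assigned to genes. A count of 0 allows a level of up to 0.0855 to 0.106 CPM (reads per 1000000 assigned reads, after scaling between libraries), counting error only. Cyp19a1 had 3 and 2 reads in FLOX-control against 1 and 9 in GFAP-ARO-KO, too few to check the labels. The second knockout library stood apart in meningeal genes. The summed level of 11 meningeal markers was 476 CPM there, against 115 CPM in the first knockout and 106.1 and 151 CPM in the controls.

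In GFAP-ARO-KO 7 of the set's 15 tested enzymes that build cholesterol were lower, as was Srebf2, the factor that drives them. Lower as well were 3 genes of sterol transfer, storage and esterification, while the ABC transporters Abca1 and Abcg1 were higher. Over all 39 genes, 11 fell, 2 rose, 25 did not pass and 1 was not tested (edgeR's quasi-likelihood test, Benjamini-Hochberg adjusted p under 0.05 over 15011 genes). The 11 falls are 28.9% of the 38 tested, against 11% of all tested genes that were called lower. The 2 rises are 5.26%, against 9.39% of all tested genes that were called higher. The median log2 fold change was -0.26 over the 38 genes and 0 over all genes. Both knockout levels lay below both control levels for 21 of the 38 and above them for 6, against 32.8% and 32% of all tested genes. Calls in either direction made up 20.4% of all tested genes. Without the first control library 3 genes fell, and without the second 7 fell; 0 rose without either. Calls over all genes then also dropped, to 3.59% and 3.37% lower.

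**Figure D1:**
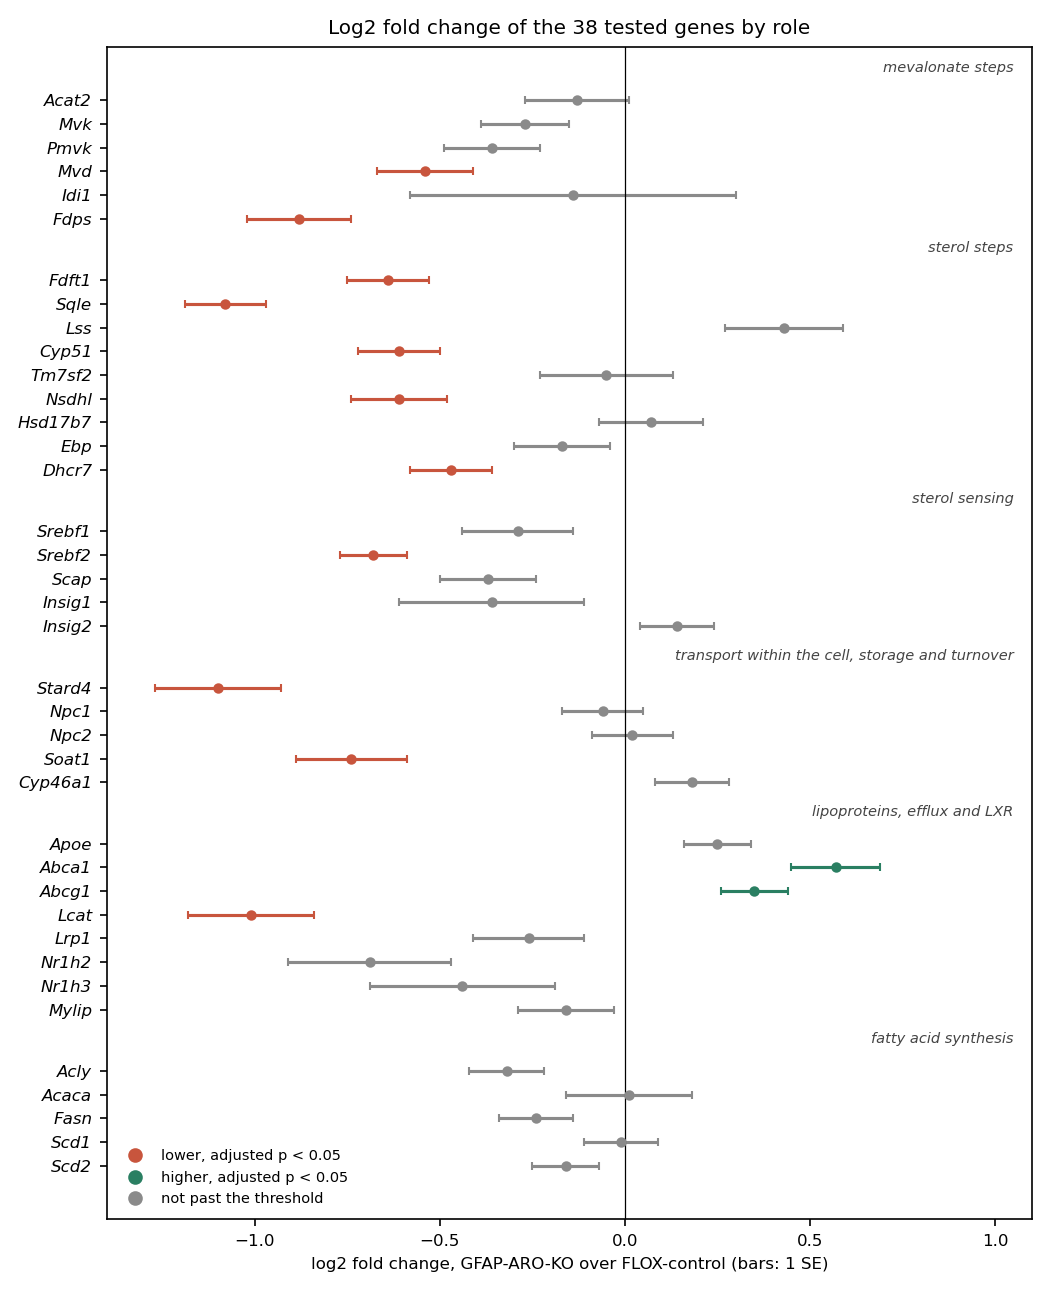
Log2 fold change of GFAP-ARO-KO over FLOX-control for the 38 tested genes, grouped by role. Points are estimates, bars are 1 SE (n = 2 libraries per group), and color marks the call at an adjusted p of 0.05; Stard4 and Sqle have the lowest values, at -1.10 and -1.08, and Abca1 has the highest, at 0.57.

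The early enzymes lead from acetyl-CoA through mevalonate to farnesyl diphosphate. Of 7 genes, 2 fell, 4 did not pass and 1 was not tested, and all 6 estimates were negative (median log2 fold change -0.31). The 2 falls are 33.3% of the 6 tested, against 11% of all tested genes. Fdps makes farnesyl diphosphate, the branch point to sterols. It was at 24.6 and 22 CPM in FLOX-control and 12.4 and 13 CPM in GFAP-ARO-KO. The groups were well apart, with a 1.84-fold lower level in the knockouts (log2 fold change -0.88 ± 0.14 SE, adjusted p = 0.00686). Only 34.5% of the 50-base windows in its exons occur at a single place in the mm9 genome, and 58.7% have a copy on chromosome 10. Reads at several places were not assigned to genes, so its level is uncertain. Mvd, mevalonate diphosphate decarboxylase, was at 22.7 and 23.3 CPM in FLOX-control and 15.4 and 16.3 CPM in GFAP-ARO-KO. Each knockout level was below both controls, a 1.45-fold fall (log2 fold change -0.54 ± 0.13, adjusted p = 0.0259). Without the first control library neither call was kept (adjusted p = 0.0651 for Fdps and 0.152 for Mvd), and Mvd also did not pass without the second (0.177).

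The mevalonate kinase gene Mvk was at 23.9 and 23.4 CPM in FLOX-control and 19.3 and 20.1 CPM in GFAP-ARO-KO. Pmvk, the phosphomevalonate kinase, was at 39.5 and 38.3 CPM against 33.5 and 26.9 CPM. Neither passed (adjusted p = 0.158 and 0.0964), although the groups did not overlap in either gene. Pmvk passed without the first knockout library (adjusted p = 0.00829). Acat2, a thiolase of the cytosol, was at 26.8 and 22.1 CPM in FLOX-control and 22 and 22.7 CPM in GFAP-ARO-KO, and the groups overlapped. Of its windows 57.8% are single, with copies on the same chromosome.

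Hmgcs1 and Idi1 could not be measured well. Hmgcs1, the HMG-CoA synthase of cholesterol synthesis, is listed at 0 reads in all 4 libraries. The 150 bases before its start site have 0 exact matches on the chromosomes of the mm9 assembly and 2 on unplaced contigs. Idi1, which isomerizes isopentenyl diphosphate, gave 32, 28, 19 and 33 reads. Only 15.6% of its windows are single, and 84% have a copy on chromosome 2.

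The later enzymes turn farnesyl diphosphate into squalene and squalene into cholesterol. Of 9 genes, 5 fell, 55.6% against 11% of all tested genes, and 4 did not pass (median log2 fold change -0.47). Their summed level was 419.7 and 393.4 CPM in FLOX-control and 280.4 and 283.9 CPM in GFAP-ARO-KO. Sqle, squalene epoxidase, oxidizes squalene before the ring closes and is a control point of the pathway. The gene (chromosome 15, 59146632 to 59162747, plus strand, mm9) was at 104 and 94 CPM in FLOX-control and 48.9 and 44.4 CPM in GFAP-ARO-KO. Its level was 2.12-fold lower in the knockouts (log2 fold change -1.08 ± 0.11, adjusted p = 0.00178). That call held with each library left out (adjusted p up to 0.0114).

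Fdft1, squalene synthase, was at 73.3 and 68.4 CPM in FLOX-control and 43.7 and 47.3 CPM in GFAP-ARO-KO. The groups were apart, 1.56-fold (log2 fold change -0.64 ± 0.11, adjusted p = 0.00805). In the annotation 26.9% of its exons overlap the cathepsin gene Ctsb on the opposite strand, and 80.3% of its windows are single. Cyp51, lanosterol demethylase, was at 86.1 and 73.9 CPM against 53.5 and 51.5 CPM. Both knockouts were below both controls, 1.52-fold (log2 fold change -0.61 ± 0.11, adjusted p = 0.0119). Nsdhl, whose promoter is printed above, was at 34.4 and 32.6 CPM in FLOX-control and 20.3 and 23.7 CPM in GFAP-ARO-KO. It was 1.53-fold lower (log2 fold change -0.61 ± 0.13, adjusted p = 0.0182). Dhcr7, the dehydrocholesterol reductase of the last step, was at 48.7 and 50.9 CPM against 34.9 and 36.9 CPM. The fall was 1.39-fold (log2 fold change -0.47 ± 0.11, adjusted p = 0.0220). Without the first control library none of these 4 passed (adjusted p from 0.0710 to 0.131), and without the second Nsdhl (0.0952) and Dhcr7 (0.166) did not.

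Not every step of the ring-forming pathway moved this way. Lss, lanosterol synthase, acts between Sqle and Cyp51. It was at 19.9 CPM in both controls and at 30.5 and 23.1 CPM in the knockouts, above them in both libraries. It missed the threshold (log2 fold change 0.43 ± 0.16, adjusted p = 0.0912) and passed it without the second knockout library (0.62, adjusted p = 0.0126). Hsd17b7, a sterol ketone reductase, was at 25.5 and 26.1 CPM in FLOX-control and 24.1 and 30.2 CPM in GFAP-ARO-KO. Tm7sf2, a sterol reductase, was at 9.53 and 10.6 CPM against 8.72 and 10.9 CPM. The groups overlapped in these 2 genes, and their signs changed with a library left out. Ebp, the sterol isomerase, was at 18.6 and 17 CPM against 15.8 and 15.8 CPM (adjusted p = 0.394).

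Of the 5 genes that sense sterols, 1 fell, 20% against 11% of all tested genes, and 4 did not pass. Srebf2 (chromosome 15, 81977696 to 82035806, plus strand, mm9) encodes the transcription factor of the cholesterol genes, and its own promoter holds the sterol regulatory word shown above. Its level was 279 and 262 CPM in FLOX-control and 168 and 169 CPM in GFAP-ARO-KO. The difference of 1.61-fold (log2 fold change -0.68 ± 0.09, adjusted p = 0.00438) was far larger than the spread within either group, and it passed with each library left out (adjusted p up to 0.0350). Srebf1 encodes the factor of the fatty acid genes. It was at 74.9 and 73.1 CPM in FLOX-control and 69.9 and 51.2 CPM in GFAP-ARO-KO (adjusted p = 0.209). Scap, the escort of the SREBPs, was at 129 and 125 CPM against 110 and 85.8 CPM (adjusted p = 0.0822), with 18.9% of its exons overlapped by a gene on the opposite strand. In both genes the second knockout library was the lower one. Without the first knockout library each passed, at -0.53 (adjusted p = 0.00452) for Srebf1 and -0.57 (0.00254) for Scap.

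The Insig proteins hold the SREBPs back in the endoplasmic reticulum. Insig1, itself an SREBP target, was at 46 and 32 CPM in FLOX-control and 24.1 and 36.9 CPM in GFAP-ARO-KO. The groups overlapped (adjusted p = 0.337), and 33.1% of its windows have a copy on chromosome 3. Insig2 was at 57.7 and 56.4 CPM against 62.4 and 63.3 CPM, slightly above the controls in both knockouts (log2 fold change 0.14 ± 0.10, adjusted p = 0.339).

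Of 5 genes of sterol movement within the cell, storage and turnover, 2 fell and 3 did not pass. The falls are 40%, against 11% of all tested genes. Stard4, a soluble protein that carries sterols between membranes, was at 19 and 17.1 CPM in FLOX-control and 7.52 and 9.47 CPM in GFAP-ARO-KO. With a 2.14-fold lower level (log2 fold change -1.10 ± 0.17, adjusted p = 0.00657), it had the lowest log2 fold change of the 38 genes. It passed with each library left out (adjusted p up to 0.0494). Soat1, which esterifies cholesterol for storage, was at 19 and 18.2 CPM against 11.8 and 10.4 CPM. The level was 1.67-fold lower (log2 fold change -0.74 ± 0.15, adjusted p = 0.0141), but it did not pass without the first control (0.109) or the second (0.0868). Npc1 and Npc2, which move cholesterol out of lysosomes, did not pass. Npc1 was at 64.5 and 71.6 CPM in FLOX-control and 69.2 and 61.6 CPM in GFAP-ARO-KO. Npc2 was at 66.3 and 63.8 CPM against 61.3 and 70.4 CPM, so that the groups overlapped in both genes. Cyp46a1, the neuronal hydroxylase that lets cholesterol leave the brain, was at 165 and 153 CPM in FLOX-control and 176 and 185 CPM in GFAP-ARO-KO (log2 fold change 0.18 ± 0.10, adjusted p = 0.210).

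**Figure D2:**
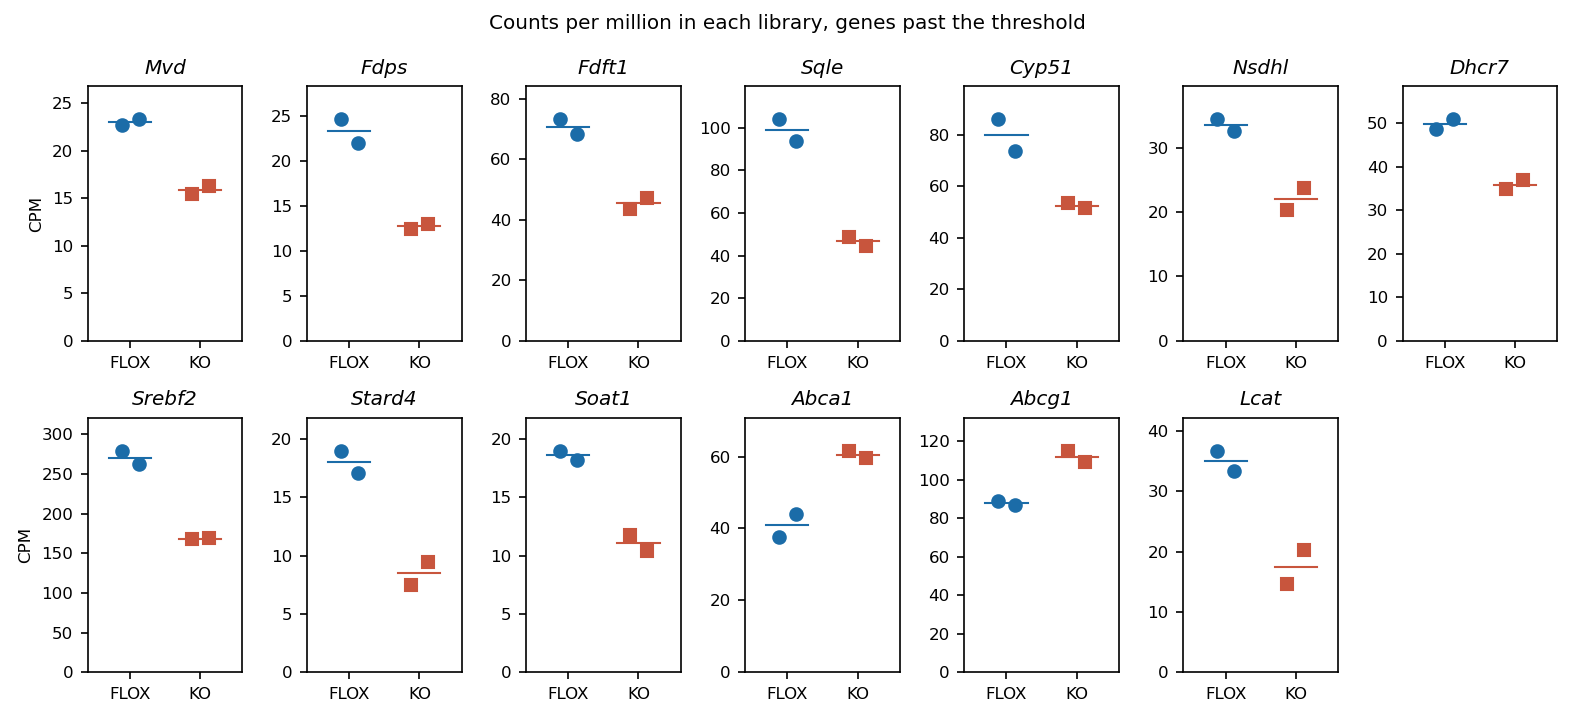
Level in CPM in each library for the 13 genes past the threshold; circles are FLOX-control libraries, squares are GFAP-ARO-KO libraries, and lines are group means (n = 2). In all 13 genes the groups are apart, with the knockouts below the controls except in Abca1 and Abcg1. The 13 were chosen by a test of this same difference, so their groups could hardly overlap. Of all tested genes, 32.8% had both knockouts below both controls and 32% had them above.

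Among 8 genes of lipoproteins, efflux and LXR, 2 rose, 1 fell and 5 did not pass. The rises are 25% and the fall 12.5%, against 9.39% and 11% of all tested genes. Abca1 (chromosome 4, 53043659 to 53172767, minus strand, mm9) loads cholesterol and phospholipid onto apolipoproteins. It was at 37.7 and 44 CPM in FLOX-control and 61.6 and 59.5 CPM in GFAP-ARO-KO. The level was 1.48-fold higher (log2 fold change 0.57 ± 0.12, adjusted p = 0.0159). Abcg1 adds further cholesterol to such particles. It was at 89.1 and 87 CPM in FLOX-control and 115 and 109 CPM in GFAP-ARO-KO, 1.27-fold higher (log2 fold change 0.35 ± 0.09, adjusted p = 0.0389). Both transporters are known LXR targets. Both rises were lost without the first control (adjusted p = 0.131 and 0.181) and without the second (0.0522 and 0.240).

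Lcat, which esterifies cholesterol on lipoprotein particles, went the other way. It was at 36.7 and 33.4 CPM in FLOX-control and 14.6 and 20.3 CPM in GFAP-ARO-KO, a 2.02-fold fall (log2 fold change -1.01 ± 0.17, adjusted p = 0.00858; 0.0529 without the first control). Apoe, the main apolipoprotein of the brain, was at 1180 and 1240 CPM against 1390 and 1490 CPM. Both knockouts were above both controls, by 1.19-fold, but Apoe did not pass (adjusted p = 0.0851). Lrp1, an ApoE receptor, was at 370 and 481 CPM in FLOX-control and 390 and 322 CPM in GFAP-ARO-KO, with overlapping groups.

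The LXR genes did not pass, and neither did a further LXR target. Nr1h2, which encodes LXR-beta, was at 50.6 and 44.3 CPM in FLOX-control and 36.1 and 22.4 CPM in GFAP-ARO-KO. The knockouts differed widely between them (log2 fold change -0.69 ± 0.22, adjusted p = 0.0668). Nr1h2 passed with DESeq2 (adjusted p = 0.00696) and in edgeR with the replicate number as a block (0.00819). It did not pass in 10 of 13 alternatives. Without the first knockout library its log2 fold change was -1.09. Nr1h3, which encodes LXR-alpha, was scarce, at 2.63 and 3.15 CPM against 2.22 and 2.02 CPM. Mylip encodes a ligase that marks lipoprotein receptors for breakdown and is induced by LXR. It was at 27.2 and 31.2 CPM in FLOX-control and 24.9 and 27.5 CPM in GFAP-ARO-KO (log2 fold change -0.16 ± 0.13, adjusted p = 0.420).

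With all 4 libraries, 0 of the 5 genes of fatty acid synthesis passed with edgeR or limma-voom. DESeq2 called 1 of them lower, and 11.6% of all genes it tested. An unadjusted edgeR p under 0.05 was found for 2 of the 5, and for 5473 of all 15011 tested genes. Acly, ATP citrate lyase, supplies acetyl-CoA to both lipid pathways. It was at 237 and 245 CPM in FLOX-control and 205 and 179 CPM in GFAP-ARO-KO (log2 fold change -0.32 ± 0.10, adjusted p = 0.0620; 0.0424 with DESeq2). Without the first knockout library Acly passed with edgeR as well (-0.43, adjusted p = 0.0120). Fasn, fatty acid synthase, was at 358 and 397 CPM against 336 and 305 CPM (adjusted p = 0.136). In both genes the knockouts were below the controls. Scd2, the desaturase that prevails in brain, was at 1610 and 1680 CPM in FLOX-control and 1430 and 1510 CPM in GFAP-ARO-KO (log2 fold change -0.16 ± 0.09, adjusted p = 0.208). Scd1, its relative, was at 171 and 155 CPM against 155 and 170 CPM, with groups that overlapped. Acaca, acetyl-CoA carboxylase, was at 24 and 28.9 CPM against 30.3 and 22.9 CPM, and 60.5% of its windows have a copy on chromosome 12. The repeat found in Abca1 is also in the promoters of Srebf1 and Fasn, whose estimates were negative (-0.29 ± 0.15 and -0.24 ± 0.10) and did not pass.

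Levels of different genes were set side by side per kilobase of merged exon. Apoe was highest, at 596 and 626 CPM per kilobase in FLOX-control and 702 and 753 in GFAP-ARO-KO. Scd2 came next, at 262 to 308 CPM per kilobase over the 4 libraries, and Cyp46a1 followed at 72.2 to 87.3. These ranges did not overlap. Srebf2 was at 55.9 and 52.5 CPM per kilobase in FLOX-control and 33.7 and 33.9 in GFAP-ARO-KO. Acly was at 44.9 and 46.4 in FLOX-control and 38.8 and 33.9 in GFAP-ARO-KO. The order of these 2 genes depended on the length used: the mean over 4 libraries was 44 for Srebf2 and 41 for Acly per kilobase of merged exon, and 44 and 48.9 per kilobase of the longest transcript. Abcg1, at 21.4 to 28.3 CPM per kilobase, and Abca1, at 3.64 to 5.94, were of unequal abundance. LXR-alpha (Nr1h3) was at 0.803 to 1.25 and LXR-beta (Nr1h2) at 6.65 to 15.0 CPM per kilobase.

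**Figure D3:**
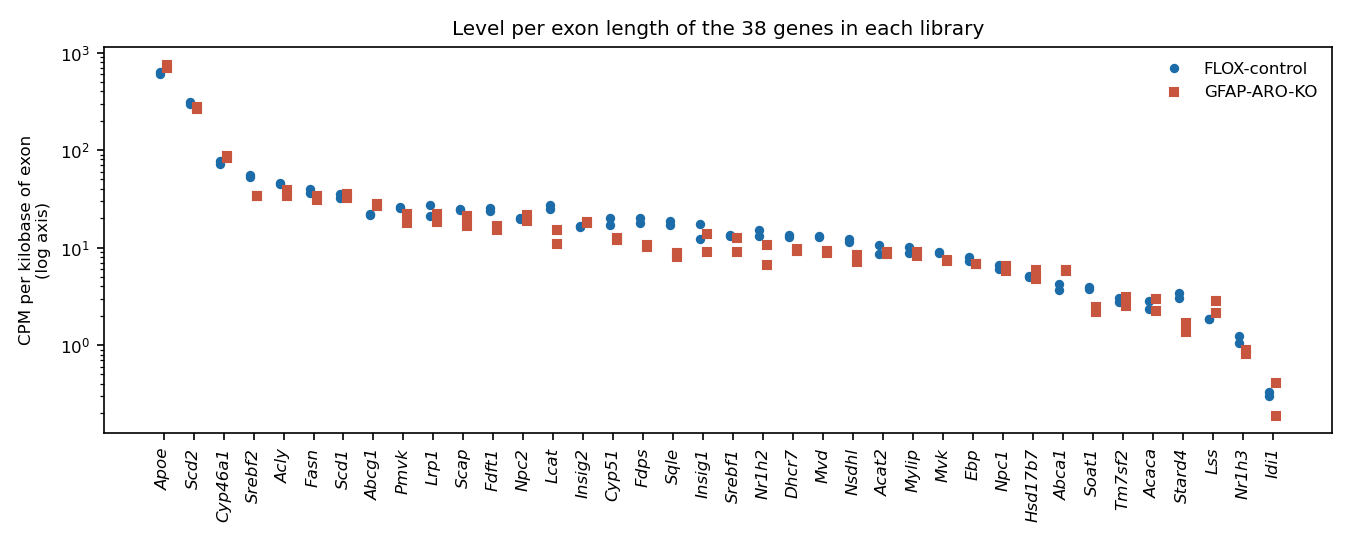
Level in CPM per kilobase of merged exon (log axis) of 38 genes in each library, ordered by the mean over 4 libraries; circles are FLOX-control and squares GFAP-ARO-KO. Levels run from 669 for Apoe to 0.307 for Idi1, whose reads are mostly not assignable.

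Other genes of the same pathways were counted from fixed lists. Of 13 further tested genes of sterol and isoprenoid synthesis, 2 fell, 1 rose and 10 did not pass. These are 15.4% lower and 7.69% higher, near the 11% and 9.39% of all tested genes. Of 15 further tested genes of sterol sensing and partner factors, 2 rose and 2 fell (13.3% each way, also near those of all genes). Nfya, a subunit of the CCAAT-binding factor NF-Y, was at 27.6 and 25.7 CPM in FLOX-control and 14.6 and 12.7 CPM in GFAP-ARO-KO (0.512 of the control level, adjusted p = 0.00502). Mbtps1, a protease that frees the SREBPs, rose 1.32-fold, from 123 and 120 CPM to 164 and 158 CPM (adjusted p = 0.0225). With either control library left out, Mbtps1 did not pass (adjusted p = 0.123 and 0.166).

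Among 26 further tested genes of lipoproteins and transport, 4 fell and 1 rose, 15.4% and 3.85% against 11% and 9.39% of all tested genes. Abca7, a relative of Abca1, was at 23 and 21.1 CPM against 12.3 and 9.82 CPM (adjusted p = 0.00725; 0.0546 without the first control). Pltp, the phospholipid transfer protein and an LXR target, was at 49.1 and 54.1 CPM against 30.6 and 34.5 CPM (adjusted p = 0.0105; 0.0919 without the second control).

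Of 33 further tested genes of fatty acid synthesis and binding, 9 fell and 5 rose, 27.3% and 15.2% against the same shares of all genes. Without the first control library 2 of the 33 fell, without the second 1 fell, and 0 rose without either. Fabp7, a fatty acid binding protein of astrocytes and neural progenitors, was at 35.6 and 49.8 CPM in FLOX-control and 7.63 and 6.99 CPM in GFAP-ARO-KO (0.172 of the control level, adjusted p = 0.000967). Elovl6, an elongase and SREBP target, was at 81.8 and 91.9 CPM against 57.7 and 54.2 CPM (adjusted p = 0.00867; 0.0797 without the second control). Scd3, a rare desaturase, was at 5.77 and 5.08 CPM against 2.91 and 2.48 CPM (adjusted p = 0.0206; 0.146 without the first control and 0.0902 without the second).

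Leaving out a library changed calls more than estimates among the 13 genes past the threshold. All 13 kept their sign in each of the 13 alternatives tried. The groups were apart in all 13, so leaving out a library could hardly change a sign. Sqle, Srebf2 and Stard4 passed in every one of those alternatives. The other 10 lost their call without the first control library, and 6 of these also without the second. No call was lost without either knockout library. In those fits the spread came from the controls, which differed less than the knockouts (chi-square per degree of freedom 14.4 against 27.2). The part of the meningeal signal of the second knockout in the calls was not tested. Among the 15 tested enzymes of cholesterol synthesis, 7 fell with all libraries, 1 without the first control and 4 without the second. Their median log2 fold change was -0.33 and -0.39 in those fits, against -0.36 with all libraries.

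**Figure D4:**
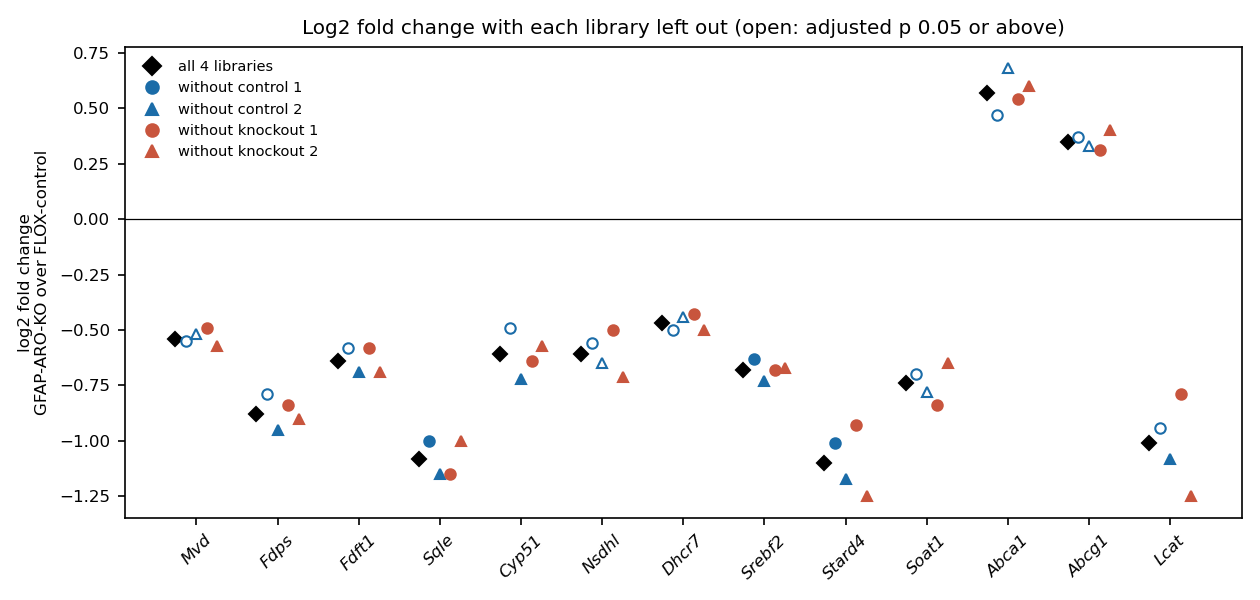
Log2 fold change of GFAP-ARO-KO over FLOX-control for the 13 called genes with all 4 libraries and with each left out; open symbols have an adjusted p of 0.05 or above. Estimates stay on one side of 0, from -1.25 to -0.43 for the 11 lower genes and from 0.31 to 0.68 for the 2 higher ones. The groups are apart in all 13 genes, so a change of side could hardly occur.

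Markers of several cell types moved along with the lipid genes. Of all tested genes, 11% were called lower and 9.39% higher. Without either control library fewer falls were called in each list of this paragraph, as over all genes. In hippocampal tissue, fewer cells of a type and less RNA per cell cannot be told apart. Falls were called for 11 of 18 markers of oligodendrocytes and their precursors, with a summed level of 4691 to 4923 CPM in the controls and 3956 to 4293 CPM in the knockouts. Mbp, the most abundant of them, did not pass, at 0.891 of the control level. Of 14 microglia and macrophage markers, 11 fell and 3 did not pass (606.2 and 682 CPM against 342.7 and 350.8 CPM), with Csf1r at 0.536 of the control level. Of 12 astrocyte markers, 4 fell and 1 rose (6255 and 6606 CPM against 5281 and 5568 CPM), with Gfap at 0.523 and Slc1a2 at 0.896. Of 11 neuron markers, 3 fell (14960 and 15580 CPM against 13940 and 14160 CPM; 0 without either control or without the second knockout), while Camk2a and Snap25 did not pass.

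The remaining lists of markers summed to lower levels than these in both controls. Of 12 vascular markers, 3 rose and 1 fell, at 240.5 to 259.6 CPM in FLOX-control and 264.6 and 436 CPM in GFAP-ARO-KO, and Slco1a4 and Acta2 did not pass. Both passed without the first knockout library (adjusted p = 0.000622 and 2.73e-08), and Acta2 also without the second (0.00721). Of 8 choroid plexus markers, which summed to 34.53 and 36.93 CPM in FLOX-control and 50.1 and 67.44 CPM in GFAP-ARO-KO, 6 were tested and 3 rose, and Kl did not pass. With a minimum count of 50, 1 choroid plexus marker rose. With no filter, or with the replicate number as a block, 2 rose. Ttr was at 6.84 and 4.47 CPM in FLOX-control and 13.2 and 30.4 CPM in GFAP-ARO-KO (3.81-fold, log2 fold change 1.93 ± 0.46, adjusted p = 0.0416). Its call was absent with either control library left out (adjusted p = 0.201 and 0.292), when none of the choroid plexus markers passed with edgeR. With the second knockout left out, Ttr still passed (adjusted p = 0.0148), at a lower log2 fold change of 1.23. Of the 10 tested meningeal markers 0 passed with edgeR and 0 had an unadjusted p under 0.05; Igf2, the most abundant, was at 225 CPM in the second knockout and 27.7 CPM in the first, and Dcn at 103 and 66.6 CPM. Without the first knockout library 10 of the 11 listed meningeal markers were called higher, Dcn excepted (adjusted p = 0.296). Blood leukocyte markers summed to 10.07 and 11.93 CPM against 5.982 and 9.787 CPM, and neither tested one, Lyz2 or Ptprc, passed with all libraries; Ptprc was called lower without the second knockout (adjusted p = 0.0150). Of 4 red blood cell markers 3 are listed at 0 in all libraries, and Alas2 did not pass. The part of these cell types in the changes of the lipid genes was not tested.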

How the data were processed

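The authors deposited raw HTSeq read counts per gene symbol for each of 4 libraries, from 50-base single-end reads of total RNA, per the labels' protocols. Reads were aligned to mm9 with TopHat2 2.0.8b, per the submitters' processing notes, after duplicate runs were combined, per the series' design text. No assumption was made on the strand setting (not given in the sources used here). HTSeq's 5 tally rows (45.17% to 47.3% of entries, mostly alignments at several places, 35.73% to 37.35%) stayed out.

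Groups came from sample titles. Genes passing filterByExpr (minimum count 10, minimum total 15) were fitted with edgeR 4.0.16 in R 4.3.3 (TMM factors, glmQLFit with legacy=FALSE and robust estimation, glmQLFTest), with Benjamini-Hochberg adjustment over 15011 genes. SE is the absolute log2 fold change over the square root of F. CPM uses TMM-scaled library sizes. The steps were tested on simulated counts. Replicates differed by more than counting noise (chi-square per degree of freedom 14.4 and 27.2).

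The genes, lists and tests were chosen with earlier results of these data known. All 39 genes are named, plus the 3 genes of smallest p in each other pathway list and the 2 most abundant tested markers of each cell type list. Some items under this rule are not reported here. Exon lengths, overlaps and exact 50-base matches come from NCBIM37 (mm9) with GENCODE vM1, promoters from RefSeq. Hmgcs1 has no entry in that annotation. Sqle, Fdps, Fdft1, Stard4, Npc1, Abcg1, Scd1 and Scd2 had no promoter entry. The fit was repeated with RLE or upper-quartile scaling, no filter and a minimum count of 50, legacy and non-robust estimation, limma-voom 3.58.1, DESeq2 1.42.0, a replicate block, each library left out, and the longest transcript as gene length.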

Additional observations from a re-analysis of the deposited data

How the results depend on the processing

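The number of genes called over the whole table ran from 813 to 4821 with a library left out, against 3061 with all. The genes of the set called lower ran from 3 to 16 (11 with all) and those called higher from 0 to 3 (2 with all). In these fits the single library left in a group is assumed to vary like the other group. With the other alternatives these counts stayed within 1.5 times, with 1 exception: with the replicate number as a block, 1 gene of the set rose, since Abcg1 did not pass (adjusted p = 0.0545). The block also called Nr1h2 (0.00819) and Scap (0.0479) lower, 13 in all, and ended the call of the marker Ttr (0.0954), as did testing without a filter (0.0532). Over all tested genes, the deviations of same-numbered libraries had a correlation of -0.0057. With 2 libraries per group, this value cannot show whether same-numbered libraries were paired. Scd1 turned to 0.02 with upper-quartile scaling and 0.01 with the stricter filter. With a library left out, sign changes were seen only among genes that did not pass: Hsd17b7 (-0.09 to 0.23), Tm7sf2 (-0.20 to 0.11), Idi1 (-0.73 to 0.37), Acat2 (-0.26 to 0.03), Npc1 (-0.14 to 0.04), Npc2 (-0.07 to 0.11), Scd1 (-0.08 to 0.08), Acaca (-0.21 to 0.21), and the markers Igf2 (-0.17 to 2.84), Dcn (-0.07 to 0.60) and Snap25 (-0.10 to 0.15). The cause was not tested. Called genes of the set had groups apart, so their signs could hardly change in these fits. With the longest transcript as length, 19 of 38 levels per kilobase moved by more than the spread between libraries.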
